A study of Mus musculus with 12 samples.

Results

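The genes described here are 40 skeletal muscle genes, listed by name from the known parts of the muscle fibre, with earlier results of these samples known, among 24060 gene rows of the deposited files. They are 5 myogenic transcription factors, 3 genes for actin and desmin, 6 genes for the Z disc, titin, nebulin and C protein, 6 myosin heavy chains, 4 myosin light chains, 7 troponins, 5 genes for calcium handling, 2 genes for energy and oxygen, and 2 acetylcholine receptor subunits. Their RNA was measured in 12 rhabdoid tumors from mice of the genotype P0-CreC;Smarcb1 flox/flox, kept on the FVB/N background. Every tumor had the same genotype, in which Cre recombinase, driven by the promoter of the myelin protein P0 in neural crest cells and the Schwann cell lineage, removes Smarcb1, a core subunit of the SWI/SNF chromatin remodeling complex. The groups are sites of growth: 4 retro-orbital tumors, 3 tumors of the cheek, 3 of the meninges, 1 of the vestibular N and 1 of the trigeminal N, as the labels name them. No muscle, no normal tissue and no tumor with intact Smarcb1 was analysed here, and the age of each mouse was not used here. The RNA was extracted from dissected and frozen tumors, so fewer cells of a type and less RNA per cell cannot be told apart in any value below.

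A skeletal muscle fibre is built in steps. The transcription factors Myf5 and Myod1 commit a precursor to the muscle fate, Myog drives the myoblast to leave the cell cycle and fuse, Myf6 is kept on in the finished fibre, and Mef2c works with them on muscle promoters. The fibre then makes sarcomeres, in which a thick filament of myosin pulls on a thin filament of actin, troponin and tropomyosin whenever calcium is released. Many sarcomere parts exist in forms for the embryo (Myh3, Actc1, Tnnt2), the newborn (Myh8), slow fibres (Myh7, Tnnt1) and fast fibres (Myh1, Myh2, Myh4, Tnnt3), so the mix of forms tells which kind of fibre the RNA resembles. Muscles that move the eye and the jaw lie beside the retro-orbital and cheek sites, and the fibres of head muscles come from mesoderm rather than from the neural crest.

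RPKM is the number of read fragments of a gene, divided by the length of its transcript and by the sequencing depth of the tumor. Fragment totals, estimated from the RPKM that a single fragment is worth, ranged from 13206168 (cheek tumor 3) to 57128422 (retro-orbital tumor 3). Smarcb1 was listed at 1.70 to 6.31 RPKM, and no tumor with intact Smarcb1 was analysed to set these against. The titles of cheek tumors 2 and 3 share their first part, as do those of cheek tumor 1 and meninges tumor 1 and those of retro-orbital tumor 3 and the trigeminal N tumor. The labels do not say whether such tumors came from the same animal. Cheek tumors 2 and 3 were the most alike of all pairs. Over 2080 genes their fragment numbers gave a chi-square of 29.1 per degree of freedom, which is more than counting error but cannot tell separate tumors from pieces of the same tumor. They were counted as separate tumors, as labelled. If tumors share an animal, p-values measure in part the spread within animals. The labels name no sequencing batch.

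The promoters of 5 members are shown because their RNA levels, given below, fall into different patterns: Acta1 (skeletal actin) and Mylpf (fast regulatory light chain) as sarcomere genes on chromosomes 8 and 7, and Myh1, Myh4 and Myh8 as neighbours in the myosin heavy chain cluster of chromosome 11. Each sequence is the 250 bases before the RefSeq transcript start on GRCm38.p6, written 5′ to 3′ in the direction of the gene. Capitals mark matches on either strand to the E box (CANNTG, the site of the myogenic bHLH factors), the letters TATAAA, the CArG box of serum response factor and the MEF2 site.
Acta1, chr8:123894776-123895025, minus strand: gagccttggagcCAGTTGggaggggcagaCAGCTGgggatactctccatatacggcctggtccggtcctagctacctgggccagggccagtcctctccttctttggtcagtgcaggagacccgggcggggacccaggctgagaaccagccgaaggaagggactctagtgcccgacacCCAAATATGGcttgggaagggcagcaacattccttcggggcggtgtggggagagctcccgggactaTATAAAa
Mylpf, chr7:127211358-127211607, plus strand: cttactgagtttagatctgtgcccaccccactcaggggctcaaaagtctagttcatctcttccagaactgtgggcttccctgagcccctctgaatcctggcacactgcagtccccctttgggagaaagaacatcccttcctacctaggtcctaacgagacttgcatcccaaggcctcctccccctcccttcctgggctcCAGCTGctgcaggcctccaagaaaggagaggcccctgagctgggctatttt
Myh1, chr11:67199852-67200101, plus strand: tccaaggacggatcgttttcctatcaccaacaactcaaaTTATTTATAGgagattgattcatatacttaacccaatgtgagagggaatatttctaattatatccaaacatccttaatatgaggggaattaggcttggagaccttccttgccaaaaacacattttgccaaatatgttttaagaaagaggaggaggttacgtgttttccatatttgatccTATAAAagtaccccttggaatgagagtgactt
Myh4, chr11:67237562-67237811, plus strand: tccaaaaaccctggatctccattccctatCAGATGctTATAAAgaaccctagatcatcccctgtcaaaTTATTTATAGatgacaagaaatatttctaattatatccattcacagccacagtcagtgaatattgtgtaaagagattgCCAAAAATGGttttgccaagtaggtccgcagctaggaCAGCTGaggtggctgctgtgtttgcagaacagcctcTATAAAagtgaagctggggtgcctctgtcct
Myh8, chr11:67276874-67277123, plus strand: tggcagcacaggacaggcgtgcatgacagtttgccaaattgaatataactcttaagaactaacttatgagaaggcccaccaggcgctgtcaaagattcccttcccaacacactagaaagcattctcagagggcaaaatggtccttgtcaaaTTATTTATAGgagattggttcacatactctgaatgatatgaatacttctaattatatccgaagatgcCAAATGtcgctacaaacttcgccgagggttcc
The same MEF2 site, TTATTTATAG, stands 211 bases before the start in Myh1, 182 in Myh4 and 99 in Myh8, and it overlaps a match to TATAAA read on the other strand. Mylpf held no match but a single E box, CAGCTG, 51 bases before its start, and Acta1 held a CArG box 73 bases before its start. RefSeq promoters were given for 34 of the 40 members. Some members have several starts, which gave 43 member promoters. Of these, 36 held an E box (83.7%), against 66.2% of 32851 promoters of the same length, 5 held a MEF2 site (11.6% against 2.92%), 4 a CArG box (9.3% against 1.47%) and 10 the letters TATAAA (23.3% against 12.4%). Such matches describe the letters and do not show that a factor binds.

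Between 8 (meninges tumor 2) and 35 (retro-orbital tumors 1 and 4) of the 40 members reached 1 RPKM in a tumor. Retro-orbital tumors 1 and 4 and cheek tumors 2 and 3 stood at the upper end, with 35, 35, 30 and 29 members. Retro-orbital tumors 2 and 3 had 21 and 15 members at this level, cheek tumor 1 had 12, meninges tumors 1, 2 and 3 had 13, 8 and 15, and the vestibular N and trigeminal N tumors had 17 each. Of all genes, 52.3% (cheek tumor 2) to 60.4% (meninges tumor 3) reached 1 RPKM. Cheek tumor 2 held the highest value of 15 members and retro-orbital tumor 1 that of 11. Those tumors held the highest value of 4.98% and 6.37% of all genes that reached 1 RPKM in a tumor. For 20 of the 40 members the 4 highest values were those of retro-orbital tumors 1 and 4 and cheek tumors 2 and 3, which held for 111 of 16960 genes (0.654%). The 16960 genes are those that reached 1 RPKM in a tumor, while the 20 members include Myod1, which did not. All these tumors were named from the values of the members themselves, so the shares set beside them are not a test. The other 20 members include the heavy chains of the chromosome 11 cluster, the fast troponins T and I and the calcium genes Casq1 and Pvalb, which are taken up by role below.

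**Figure D1:**
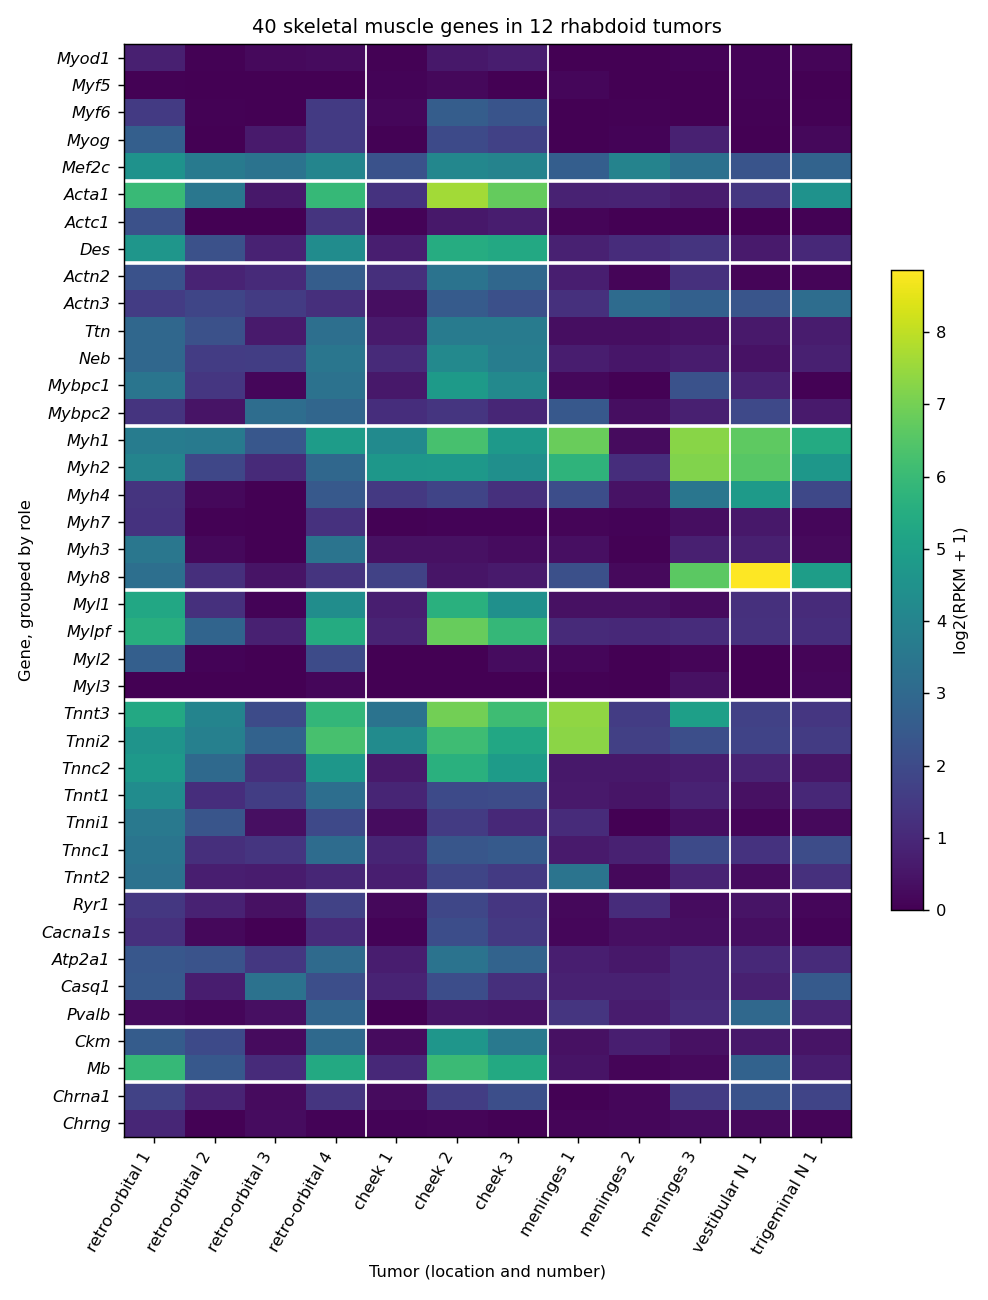
Each row is a member, grouped by role, each column a tumor, and the color gives log2(RPKM + 1). Bright rows of actin, titin, light chain and metabolic genes stand in retro-orbital tumors 1 and 4 and cheek tumors 2 and 3, while Myh1, Myh2 and Myh8 are brightest in meninges tumor 3 and the vestibular N tumor.

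Of the 5 myogenic factors, Myf5 and Myod1, which open the myogenic program, did not reach 1 RPKM in any tumor. Myf5 was listed at 0 in 7 of the 12 tumors and reached at most 0.132 RPKM, which is 9 fragments. For this gene 3 fragments, taken as the limit of a 0, correspond to 0.0253 to 0.109 RPKM, depending on the tumor. Myod1 stayed at or below 0.717 RPKM, its value in retro-orbital tumor 1, and was 0.496 and 0.653 RPKM in cheek tumors 2 and 3. Myog, the factor of terminal differentiation, was 5.39, 0, 0.544 and 1.87 RPKM in retro-orbital tumors 1 to 4, 0.0477, 2.96 and 2.25 RPKM in cheek tumors 1 to 3, 0, 0.0514 and 0.759 RPKM in meninges tumors 1 to 3, 0.0238 RPKM in the vestibular N tumor and 0.128 RPKM in the trigeminal N tumor. It passed 1 RPKM only in retro-orbital tumors 1 and 4 and cheek tumors 2 and 3, and the groups overlapped because the other retro-orbital and cheek tumors were as low as the meninges tumors. Myf6, the factor kept on in mature fibres, was 1.8, 0.0273, 0.014 and 1.83 RPKM in retro-orbital tumors 1 to 4, 0.113, 5.08 and 3.88 RPKM in cheek tumors 1 to 3, 0, 0.0305 and 0 RPKM in meninges tumors 1 to 3, 0.0282 RPKM in the vestibular N tumor and 0.0378 RPKM in the trigeminal N tumor. It reached 1 RPKM in the same 4 tumors as Myog, but its order among them differed, with the highest values in cheek tumors 2 and 3. Mef2c was the only factor above 1 RPKM in every tumor, at 22.1, 11.2, 9.33 and 15.1 RPKM in retro-orbital tumors 1 to 4, 3.64, 16.3 and 14.4 RPKM in cheek tumors 1 to 3, 5.33, 14.5 and 8.62 RPKM in meninges tumors 1 to 3, 3.89 RPKM in the vestibular N tumor and 5.97 RPKM in the trigeminal N tumor. It is also made in other lineages, such as neurons and endothelium, and its values overlapped between all locations with more than 1 tumor.

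Actin builds the thin filament, and desmin holds neighbouring myofibrils in register. Acta1, the actin of the skeletal thin filament (chr8:123891769-123894751 on GRCm38), was 62.8, 10.4, 0.49 and 60.4 RPKM in retro-orbital tumors 1 to 4, 1.46, 196 and 106 RPKM in cheek tumors 1 to 3, 0.787, 0.823 and 0.608 RPKM in meninges tumors 1 to 3, 1.68 RPKM in the vestibular N tumor and 22 RPKM in the trigeminal N tumor. Cheek tumors 2 and 3 were highest, retro-orbital tumors 1 and 4 followed, and the trigeminal N tumor stood above every other tumor outside the orbit and cheek. In cheek tumor 2, 257 genes of the file had a higher RPKM than Acta1. Des, the intermediate filament protein that ties myofibrils together, was 24.2, 3.57, 0.805 and 18.7 RPKM in retro-orbital tumors 1 to 4, 0.691, 43.9 and 39.8 RPKM in cheek tumors 1 to 3, 0.771, 1.15 and 1.52 RPKM in meninges tumors 1 to 3, 0.574 RPKM in the vestibular N tumor and 1.03 RPKM in the trigeminal N tumor. It was high in the same 4 retro-orbital and cheek tumors, and in the trigeminal N tumor it was near the level of the meninges tumors, unlike Acta1. Actc1, the actin of heart and embryonic muscle, reached 1 RPKM only in retro-orbital tumors 1 and 4, at 3.56 and 1.54 RPKM.

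The giant proteins of the sarcomere followed Acta1 and Des. Neb, which sets the length of the thin filament, was 6.73, 1.95, 2.04 and 10.1 RPKM in retro-orbital tumors 1 to 4, 1.09, 16.9 and 12.5 RPKM in cheek tumors 1 to 3, 0.629, 0.458 and 0.58 RPKM in meninges tumors 1 to 3, 0.362 RPKM in the vestibular N tumor and 0.722 RPKM in the trigeminal N tumor. Each of the 7 retro-orbital and cheek tumors was above each of the 5 other tumors for Neb, which held for no other member. The margin was small, with 1.09 RPKM in cheek tumor 1 against 0.722 RPKM in the trigeminal N tumor. The share of all genes that split in this way was not counted, so no result is read from it. Ttn, the spring that spans from Z disc to M line, was 6.73, 3.53, 0.556 and 8.47 RPKM in retro-orbital tumors 1 to 4, 0.54, 11.8 and 11.9 RPKM in cheek tumors 1 to 3, 0.251, 0.25 and 0.366 RPKM in meninges tumors 1 to 3, 0.521 RPKM in the vestibular N tumor and 0.601 RPKM in the trigeminal N tumor, and retro-orbital tumor 3 and cheek tumor 1 lay within the range of the other 5 tumors. Actn2, the Z disc actinin of all fibres, reached 9.43 RPKM in cheek tumor 2 and 6.67 RPKM in cheek tumor 3, and Mybpc1, the slow form of myosin binding protein C, reached 27.1 and 16.8 RPKM there. Outside the orbit and cheek, Mybpc1 passed 1 RPKM in meninges tumor 3 alone, at 3.73 RPKM.
The fast-fibre partners of these genes did not share their order. Actn3, the Z disc actinin of fast fibres, was highest in the trigeminal N tumor (7.89 RPKM) and meninges tumor 2 (7.6 RPKM), where Actn2 was 0.095 and 0.0765 RPKM. Mybpc2, the fast form of the C protein, was highest in retro-orbital tumor 3, at 8.0 RPKM, where Mybpc1 was 0.11 RPKM.

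Myosin light chains sit on the neck of the heavy chain. Mylpf, the regulatory light chain of fast fibres (chr7:127208890-127214298), was 45.9, 6.17, 0.765 and 43 RPKM in retro-orbital tumors 1 to 4, 0.841, 109.9 and 59.1 RPKM in cheek tumors 1 to 3, 1.06, 1.01 and 1.19 RPKM in meninges tumors 1 to 3, 1.4 RPKM in the vestibular N tumor and 1.25 RPKM in the trigeminal N tumor. Values above 40 RPKM were seen in retro-orbital tumors 1 and 4 and cheek tumors 2 and 3, and 7 tumors lay between 0.765 and 1.4 RPKM. Myl1, the fast essential light chain, was 38.9, 1.32, 0.0631 and 19.1 RPKM in retro-orbital tumors 1 to 4, 0.667, 47.8 and 21 RPKM in cheek tumors 1 to 3, 0.327, 0.308 and 0.202 RPKM in meninges tumors 1 to 3, 1.33 RPKM in the vestibular N tumor and 1.15 RPKM in the trigeminal N tumor, again highest in cheek tumor 2 and next in retro-orbital tumor 1. The slow and cardiac regulatory chain Myl2 reached 1 RPKM only in retro-orbital tumors 1 and 4 (5.42 and 3.1 RPKM), and the slow essential chain Myl3 stayed at or below 0.313 RPKM, or 5 fragments.

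Myosin heavy chains are the motors of the thick filament. Unlike Mylpf and Myl1, the adult fast and perinatal forms were highest outside the orbit and cheek. Myh1, the heavy chain of fast IIx fibres (chr11:67200052-67224575), was 12.1, 11.3, 4.33 and 28.6 RPKM in retro-orbital tumors 1 to 4, 17.8, 77.4 and 26.8 RPKM in cheek tumors 1 to 3, 112, 0.202 and 154 RPKM in meninges tumors 1 to 3, 100.3 RPKM in the vestibular N tumor and 41.7 RPKM in the trigeminal N tumor. The highest values belonged to meninges tumors 3 and 1 and the vestibular N tumor, and the lowest to meninges tumor 2. Myh2, the heavy chain of fast IIa fibres (chr11:67171027-67197517), was 14.9, 2.71, 1.06 and 6.73 RPKM in retro-orbital tumors 1 to 4, 24.7, 25.5 and 20.2 RPKM in cheek tumors 1 to 3, 53.4, 1.24 and 143 RPKM in meninges tumors 1 to 3, 92.5 RPKM in the vestibular N tumor and 24.7 RPKM in the trigeminal N tumor. Meninges tumor 3 and the vestibular N tumor were again highest, and retro-orbital tumors 2 and 3 and meninges tumor 2 lowest. Myh4, that of fast IIb fibres, was lower than Myh1 in all tumors but meninges tumor 2, with 27.3 RPKM in the vestibular N tumor, 10.2 RPKM in meninges tumor 3 and at most 4.54 RPKM in the retro-orbital and cheek tumors.
The forms made before and around birth split apart. Myh8, the perinatal heavy chain (chr11:67277124-67308634), was 8.36, 1.31, 0.373 and 1.5 RPKM in retro-orbital tumors 1 to 4, 2.37, 0.419 and 0.567 RPKM in cheek tumors 1 to 3, 3.48, 0.179 and 98.1 RPKM in meninges tumors 1 to 3, 462 RPKM in the vestibular N tumor and 29.5 RPKM in the trigeminal N tumor. In the vestibular N tumor this was 80636 fragments, and 93 genes of the file had a higher RPKM. Myh3, the embryonic heavy chain (chr11:67078300-67102291), lies in the same cluster, but was 10.4 and 9.68 RPKM in retro-orbital tumors 1 and 4 and at most 0.717 RPKM in every other tumor. Myh7, the slow and cardiac heavy chain on chromosome 14, passed 1 RPKM in the same tumors as Myh3, at 1.46 and 1.39 RPKM.

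Set against the light chains, the heavy chains did not match in amount. The summed RPKM of the 6 heavy chain genes was 48.7, 15.6, 5.79 and 52.5 RPKM in retro-orbital tumors 1 to 4, 47, 106 and 49.2 RPKM in cheek tumors 1 to 3, 173, 2.06 and 407 RPKM in meninges tumors 1 to 3, 683 RPKM in the vestibular N tumor and 98.9 RPKM in the trigeminal N tumor. The summed RPKM of the 4 light chain genes was 90.2, 7.54, 0.828 and 65.3 RPKM in retro-orbital tumors 1 to 4, 1.51, 158 and 80.3 RPKM in cheek tumors 1 to 3, 1.54, 1.32 and 1.79 RPKM in meninges tumors 1 to 3, 2.73 RPKM in the vestibular N tumor and 2.58 RPKM in the trigeminal N tumor. The ratio of the heavy to the light chain sum was 0.54 and 0.804 in retro-orbital tumors 1 and 4, and 0.674 and 0.613 in cheek tumors 2 and 3. It was 2.07 and 7.0 in retro-orbital tumors 2 and 3 and 1.57 in meninges tumor 2, where both sums were low. It was 31.2 in cheek tumor 1, 38.4 in the trigeminal N tumor, 112 and 227 in meninges tumors 1 and 3, and 250.1 in the vestibular N tumor. The 3 highest heavy chain sums, in the vestibular N tumor and meninges tumors 3 and 1, stood in tumors where Mylpf, Acta1 and Tnnc2 were between 0.473 and 1.68 RPKM.

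**Figure D2:**
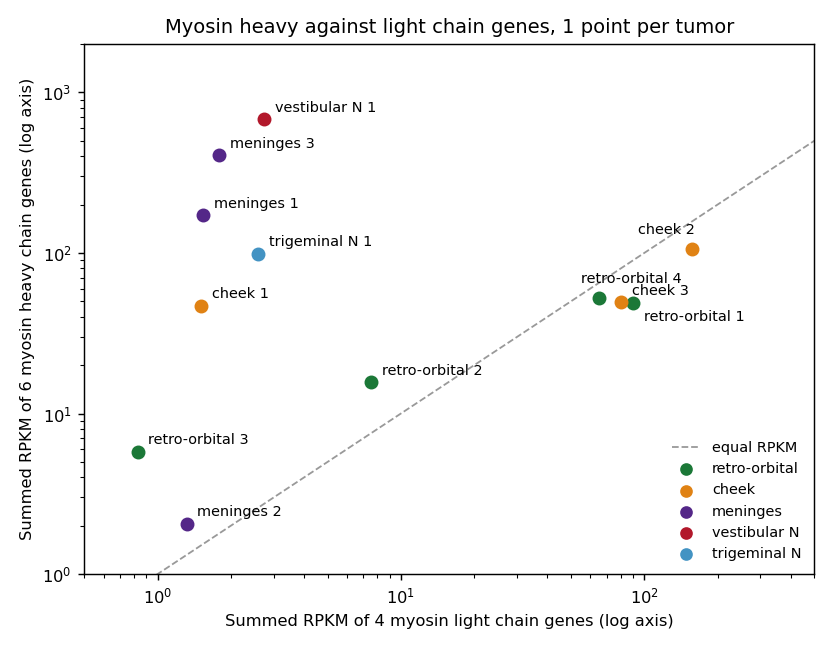
Each point is a tumor, with the summed RPKM of Myl1, Mylpf, Myl2 and Myl3 on the horizontal log axis and that of Myh1, Myh2, Myh4, Myh7, Myh3 and Myh8 on the vertical log axis, and the dashed line marks equal sums. Cheek tumors 2 and 3 and retro-orbital tumors 1 and 4 lie just below the line at the right, while the vestibular N tumor lies 250.1-fold above it.

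The mix of heavy chains also differed between tumors. The adult fast forms Myh1, Myh2 and Myh4 made up 99.3% and 98.2% of the heavy chain RPKM in cheek tumors 2 and 3, 76% in retro-orbital tumor 4, 58.5% in retro-orbital tumor 1 and 32.2% in the vestibular N tumor. In retro-orbital tumor 1 the remainder was spread over Myh3 (21.4%), Myh8 (17.2%) and Myh7 (3.0%). In the vestibular N tumor it was nearly all Myh8, at 67.6%. The same held at a lower share for the trigeminal N tumor (29.8% Myh8) and meninges tumor 3 (24.1% Myh8). In meninges tumor 1, by contrast, Myh8 was 2.01% and Myh1 65%. These shares cover the 6 heavy chain members only and leave out Myh13, another heavy chain of the cluster that is described below. In meninges tumor 1 Myh13 was 129 RPKM, above Myh1 at 112 RPKM, so the shares with Myh13 included would be lower there.
Near-identical coding sequence limits how well these genes can be told apart. Of the 50-base windows of the longest transcript, 26.7% in Myh1, 26.9% in Myh2, 21.4% in Myh8 and 18.9% in Myh4 also occur in another gene, but 4.81% in Myh3. The authors kept uniquely mapped reads, so reads lying wholly in such stretches may have been left out, and the level of each gene may be understated. A read pair that reaches past a shared stretch can still have a unique place, and the loss was not measured.

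**Figure D3:**
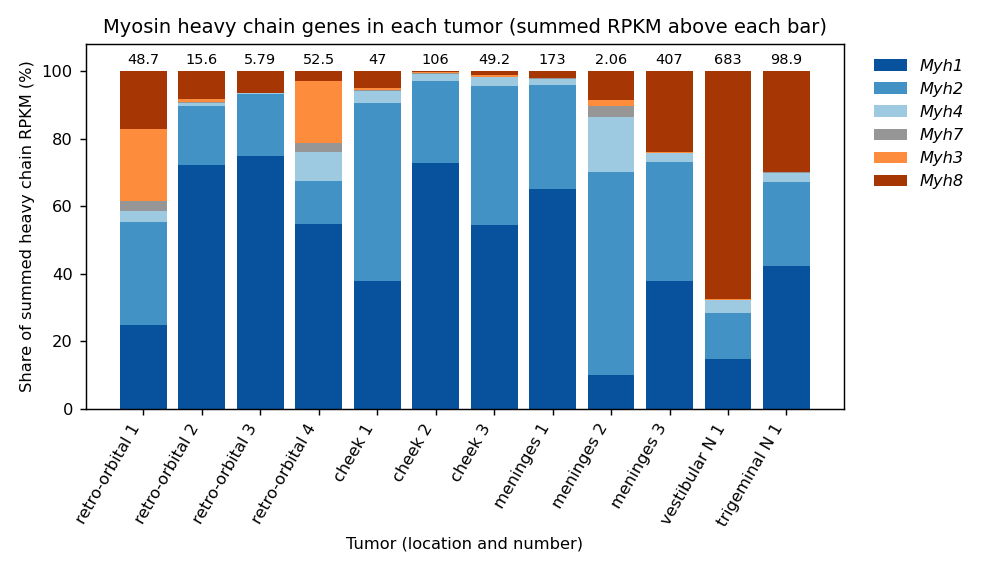
Each bar is a tumor and the colored parts are the percent of the summed heavy chain RPKM that each of the 6 genes contributes, with the sum itself in RPKM above the bar. Blue parts are the adult fast genes, which take 99.3% in cheek tumor 2, and the dark brown part is Myh8, which takes 67.6% in the vestibular N tumor.

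The neighbours of the heavy chain genes on chromosome 11 were then listed, a choice made after the values above had been seen. The genes just before the cluster, Tmem220, Adprm and Sco1, were flat, with Sco1 between 3.32 and 5.05 RPKM in all 12 tumors. Myh13, the heavy chain of eye and larynx muscles at the far end of the cluster (chr11:67321658-67371586), was 0.121, 0.62, 0.40 and 0.0959 RPKM in retro-orbital tumors 1 to 4, 10.2, 0.0843 and 0.104 RPKM in cheek tumors 1 to 3, 129, 0.0588 and 21.6 RPKM in meninges tumors 1 to 3, 22.7 RPKM in the vestibular N tumor and 2.31 RPKM in the trigeminal N tumor. It was thus highest in meninges tumor 1 and near 0 in retro-orbital tumors 1 and 4 and cheek tumors 2 and 3, where Acta1 and Mylpf were highest. The noncoding 2310065F04Rik, which lies between Myh3 and Myh2 on the other strand, was 5.07 RPKM in the vestibular N tumor, 2.6 and 2.13 RPKM in meninges tumors 3 and 1, and at most 0.468 RPKM elsewhere. Gas7, beyond Myh13, ranged from 2.8 RPKM in retro-orbital tumor 1 to 62.8 RPKM in retro-orbital tumor 4, in an order of its own.

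Troponin is the calcium switch of the thin filament, with a calcium-binding subunit C, an inhibitory subunit I and a tropomyosin-binding subunit T. Tnnc2, the fast subunit C, was 27, 7.08, 1.29 and 25 RPKM in retro-orbital tumors 1 to 4, 0.51, 47.9 and 28.2 RPKM in cheek tumors 1 to 3, 0.473, 0.495 and 0.649 RPKM in meninges tumors 1 to 3, 0.865 RPKM in the vestibular N tumor and 0.41 RPKM in the trigeminal N tumor. It behaved like Mylpf, with retro-orbital tumor 2 in between and every tumor outside the orbit and cheek below 1 RPKM. Tnnt3, the fast subunit T (chr7:142498836-142516009), was 39.2, 15.1, 3.08 and 56.6 RPKM in retro-orbital tumors 1 to 4, 9.28, 124 and 68 RPKM in cheek tumors 1 to 3, 165, 1.97 and 31.3 RPKM in meninges tumors 1 to 3, 2.26 RPKM in the vestibular N tumor and 1.64 RPKM in the trigeminal N tumor. Tnni2, the fast subunit I (chr7:142441808-142444410), was 23, 13.6, 5.93 and 76.3 RPKM in retro-orbital tumors 1 to 4, 18.3, 67.2 and 38.4 RPKM in cheek tumors 1 to 3, 159, 2.17 and 3.37 RPKM in meninges tumors 1 to 3, 2.43 RPKM in the vestibular N tumor and 1.91 RPKM in the trigeminal N tumor. Both were highest in meninges tumor 1, where Tnnc2 was 0.473 RPKM, and Tnnt3 was also at 31.3 RPKM in meninges tumor 3. The summed RPKM of Tnnt3 and Tnni2 was 2.3 to 5.31 times that of Tnnc2 in retro-orbital tumors 1 and 4 and cheek tumors 2 and 3. The same ratio was 686 in meninges tumor 1, 54.1 in cheek tumor 1 and 53.3 in meninges tumor 3.
Tnni2 and Tnnt3 lie close together on chromosome 7, and their neighbours were listed, again after these values had been seen. Syt8, before Tnni2, was 7.27 RPKM in meninges tumor 1 and below 1 RPKM in all others. The imprinted genes H19 and Igf2, beyond Tnnt3, had their highest values in meninges tumor 1 as well, at 2759.9 and 712 RPKM. H19 was 1029 RPKM in retro-orbital tumor 4 and 36.8 RPKM in cheek tumor 2, which had much Tnnt3. Mrpl23, between Tnnt3 and H19, was flat at 9.65 to 23.2 RPKM, and Lsp1 and Prr33, between Tnni2 and Mrpl23, were highest in retro-orbital tumor 2.
The slow troponins were highest in retro-orbital tumor 1, with Tnnt1 at 19 RPKM, Tnni1 at 10.8 RPKM and Tnnc1 at 9.77 RPKM. Retro-orbital tumor 4 had 8.08, 2.92 and 7.83 RPKM of these genes, and cheek tumor 2, which had the most Tnnc2, had 2.98, 1.9 and 4.14 RPKM. Tnnt2, the form of heart and embryonic muscle, was 9.7 RPKM in meninges tumor 1, 9.2 RPKM in retro-orbital tumor 1 and at most 2.62 RPKM in the others. The embryonic actin Actc1 was 0.0784 RPKM in meninges tumor 1.

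**Figure D4:**
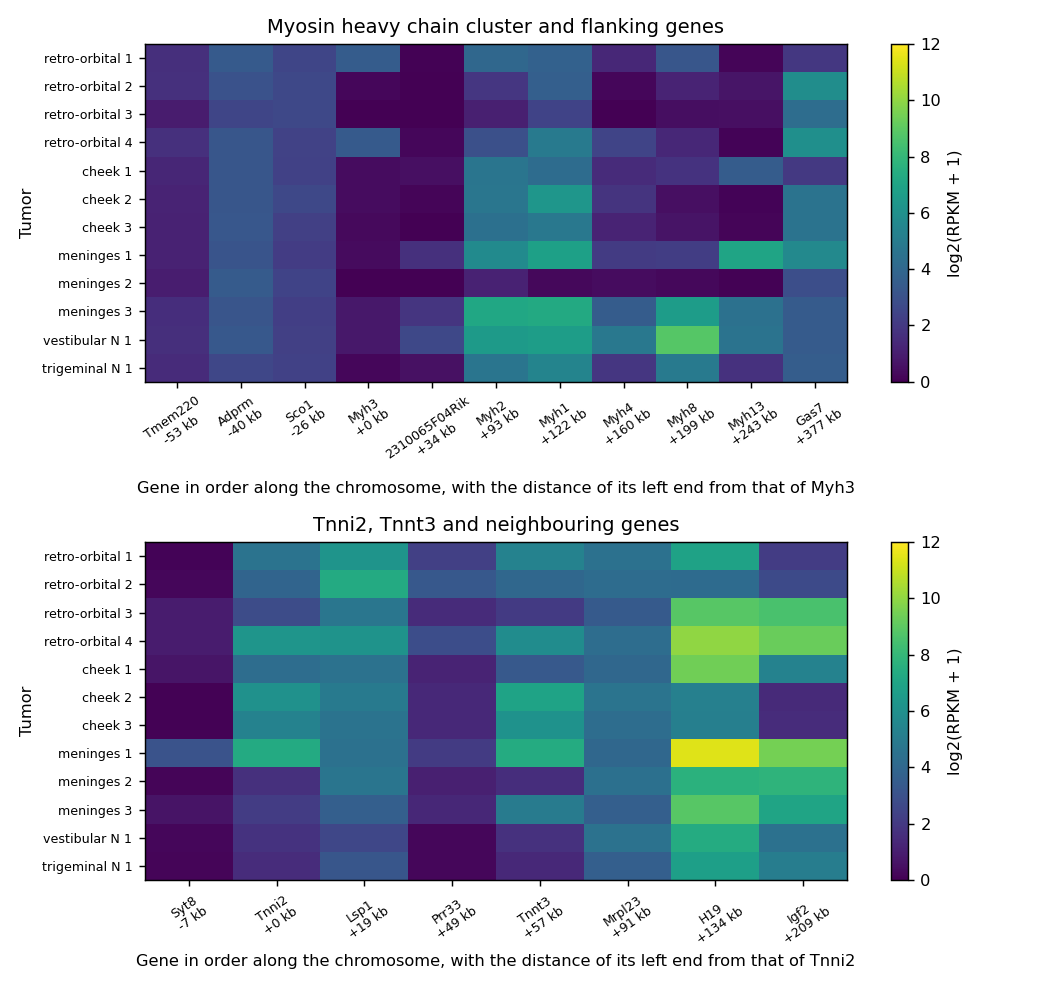
Each row is a tumor and each column a gene in its order along the chromosome, labelled with the distance of its left end in kilobases from that of Myh3 (upper panel) or Tnni2 (lower panel), and the color gives log2(RPKM + 1). In the upper panel Myh2, Myh1 and Myh8 are bright in meninges tumor 3 and the vestibular N tumor while Tmem220, Adprm and Sco1 hardly vary, and in the lower panel Tnni2, Tnnt3, H19 and Igf2 are brightest in meninges tumor 1 while Mrpl23 hardly varies.

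Calcium handling couples the nerve impulse to contraction. Cacna1s, the voltage sensor, was above 1 RPKM only in retro-orbital tumors 1 and 4 (1.33 and 1.14 RPKM) and cheek tumors 2 and 3 (3.3 and 1.74 RPKM). Atp2a1, the calcium pump of fast fibres, had its highest values in the same tumors, from 4.25 to 9.45 RPKM, and retro-orbital tumor 2 was next with 3.83 RPKM. Ryr1, the calcium release channel, was 2.68 RPKM at most and passed 1 RPKM also in meninges tumor 2. Casq1, the calcium store of fast fibres, was highest in retro-orbital tumor 3, at 9.14 RPKM, and next in the trigeminal N tumor, at 4.74 RPKM. Pvalb, the calcium buffer of fast fibres and of some neurons, was 6.98 RPKM in the vestibular N tumor, 6.34 RPKM in retro-orbital tumor 4 and at most 1.57 RPKM elsewhere. Casq1 and Pvalb thus each had their highest value in a tumor with little Cacna1s.

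Energy supply was read from Ckm, the creatine kinase of muscle, and Mb, the oxygen store of oxidative fibres. Ckm was 4.91, 3.0, 0.186 and 7.08 RPKM in retro-orbital tumors 1 to 4, 0.199, 24 and 11 RPKM in cheek tumors 1 to 3, 0.308, 0.672 and 0.318 RPKM in meninges tumors 1 to 3, 0.473 RPKM in the vestibular N tumor and 0.367 RPKM in the trigeminal N tumor. Mb was 59.6, 4.37, 1.15 and 40.3 RPKM in retro-orbital tumors 1 to 4, 1.01, 64.9 and 40.8 RPKM in cheek tumors 1 to 3, 0.377, 0.0911 and 0.179 RPKM in meninges tumors 1 to 3, 5.96 RPKM in the vestibular N tumor and 0.641 RPKM in the trigeminal N tumor. Cheek tumors 2 and 3 and retro-orbital tumors 1 and 4 were highest for both, retro-orbital tumor 2 was in between, and the vestibular N tumor had 5.96 RPKM of Mb with 0.473 RPKM of Ckm. The ratio between the tumors was not the same for the genes, since retro-orbital tumor 1 had 59.6 RPKM of Mb against 64.9 RPKM in cheek tumor 2, but 4.91 against 24 RPKM of Ckm.
The acetylcholine receptor subunit Chrna1, placed at the nerve-muscle junction, reached 3.73 RPKM in the vestibular N tumor and 3.33 RPKM in cheek tumor 3. Chrng, the subunit of fetal muscle, stayed at or below 0.942 RPKM, its value in retro-orbital tumor 1.

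Differences between locations were tested with limma on log2(RPKM + 1), over all genes with at least 1 RPKM in 3 of the tumors fitted, with Benjamini-Hochberg adjustment. Of the 40 members, 32 passed this filter, and Myod1, Myf5, Actc1, Myh7, Myh3, Myl2, Myl3 and Chrng did not. The retro-orbital and cheek tumors (n = 7) were first set against the meninges, vestibular N and trigeminal N tumors (n = 5). No member passed an adjusted p of 0.05 (0 of 32, against 0.193% of 15043 genes). At an unadjusted p under 0.05, 16 members were higher and 2 lower in the retro-orbital and cheek tumors, and 14.6% of all genes passed that level. With no filter on low values, 0 of 40 members passed the adjusted level, 19 had an unadjusted p under 0.05 (13% of 22613 genes) and 32 of 40 had a fitted difference above 0 (34.2% of genes). The members were read from the same RNA in each tumor, so these counts are not counts of independent events.
Neb had the lowest p, with a log2 difference of 2.03 (SE 0.52, adjusted p = 0.137 in limma). Tnnc2 followed with 2.89 (SE 0.81, adjusted p = 0.170 in limma), and Ttn with 1.95 (SE 0.56, adjusted p = 0.179 in limma). Mylpf and Acta1 had log2 differences as large, 2.91 and 2.86, with standard errors of 1.01 and 1.23. The 4 heavy chains tested all had differences below 0, of which Myh8 was farthest, at -3.26 (SE 1.20, adjusted p = 0.254 in limma). Both light chains, both actin and desmin genes and all 7 troponins tested had differences above 0, as had 5335 of 15043 genes. Tnnt2 and Tnnt3 were at 0.20 (SE 0.60) and 1.39 (SE 1.13). With the first part of the title as a block in limma, the difference was 1.31 for Neb, 1.68 for Tnnc2, 1.08 for Ttn, 1.38 for Mylpf and 0.71 for Acta1, and 0 members were called. Tnnt2 and Tnnt3 were then below 0, at -0.58 and -0.04, and the other troponins stayed above 0.

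The locations with more than 1 tumor were also compared with each other in limma (n = 4, 3 and 3). The F test over the 3 locations called 0 of 32 members (0.0407% of 14745 genes), and 2 members had an unadjusted p under 0.05 (14.3% of genes). The retro-orbital tumors against the meninges tumors gave 0 calls among the members (0.0203% of genes) and 8 unadjusted p under 0.05 (9.14% of genes), all 8 higher in the retro-orbital tumors. The cheek against the meninges tumors likewise gave 0 calls (0.0475% of genes) and 8 unadjusted p under 0.05 (17% of genes), all 8 higher in the cheek. All but Tnni1 of the first 8 genes and all but Actn2 of the second 8 were below 1 RPKM in each meninges tumor. Those genes passed the filter only through the retro-orbital and cheek tumors, so their direction was partly set by the filter. With no filter on low values, 0 of 40 members were called in either comparison. In each, 8 members had an unadjusted p under 0.05, against 2160 and 3325 of 22520 genes in that order. The cheek against the retro-orbital tumors gave 0 members at either level (0.0271% and 12% of genes). Cheek tumor 1 decided the call in the cheek comparison. With cheek tumor 1 left out, 7 members were called, all higher in the cheek (1.73% of 14530 genes): Acta1, Atp2a1, Ckm, Myf6, Neb, Tnnc2 and Ttn. The log2 difference was then 6.39 for Acta1 and 3.32 for Neb, against 4.42 and 2.36 with all 3 cheek tumors. Those calls rest on cheek tumors 2 and 3, whose titles share their first part. All 7 genes were below 1 RPKM in each meninges tumor. They passed the filter only through the cheek and retro-orbital tumors where they were high, and this fit was not made without the filter. With the first part of the title as a block, the F test called 2 members, Pvalb and Tnnt2 (19% of genes). The cheek against the meninges tumors then called 5 members, Actn3, Pvalb, Tnni2, Tnnt2 and Tnnt3, all lower in the cheek (17.2% of genes). That fit estimates the correlation within a block (0.93) from 2 pairs of tumors and weighs cheek tumor 1 against meninges tumor 1 most.

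**Figure D5:**
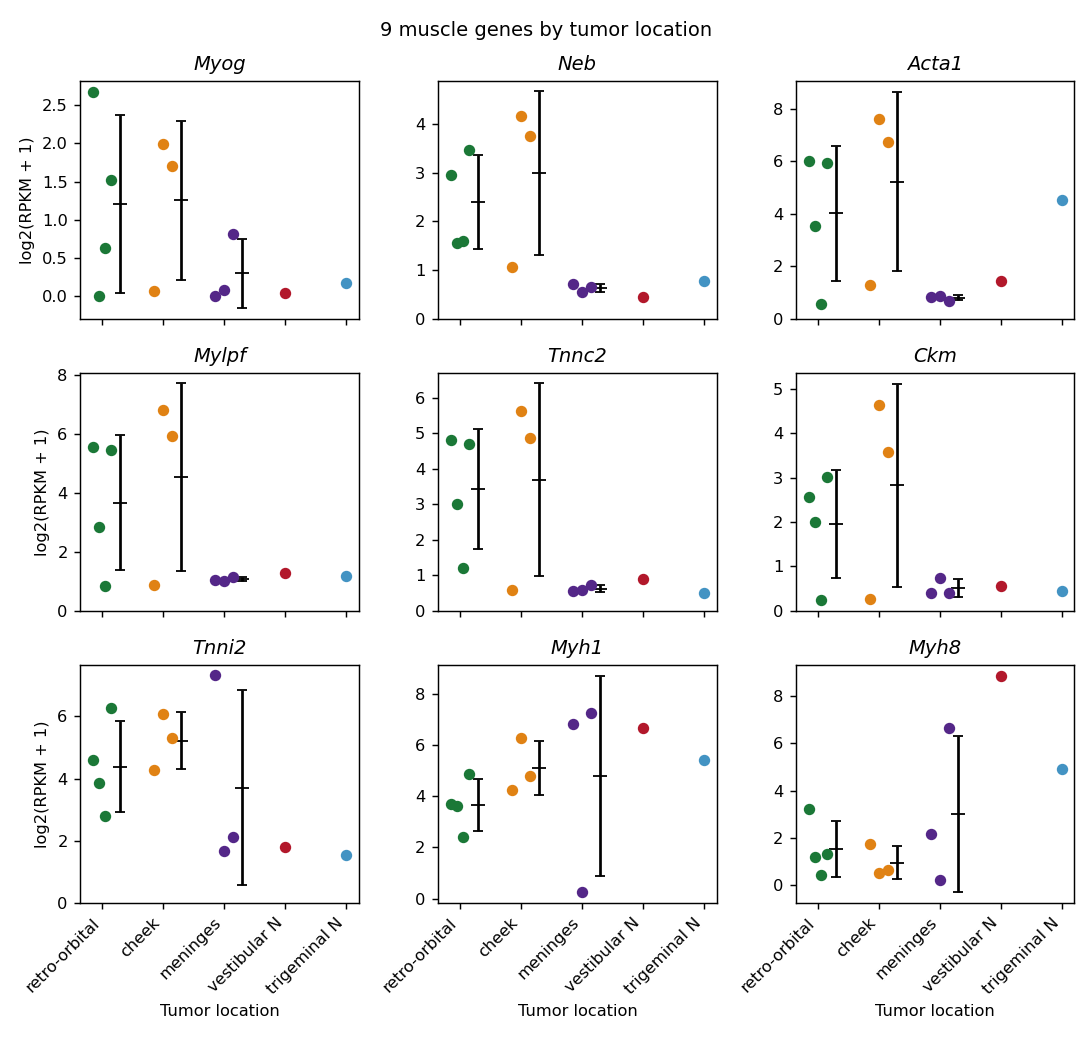
Each panel is a member, each point a tumor at its location, and the vertical axis gives log2(RPKM + 1), with the horizontal tick and bar showing the mean and SD of the 3 locations with more than 1 tumor. Neb is higher in each retro-orbital and cheek tumor than in the rest, by a small margin for cheek tumor 1. Acta1, Mylpf, Tnnc2 and Ckm spread from near the meninges level to their highest values within the retro-orbital and cheek groups, and Myh1 and Myh8 do not follow them.

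Further muscle genes were taken from 4 lists written with earlier results of these data known. Of 32 other contractile genes, cheek tumor 2 held the highest value of 20, against 4.98% of all genes that reached 1 RPKM in a tumor. Of the 32 genes, 30 reached that level in a tumor. Cheek tumor 2 was named because it also held the highest value of the most members, so this share is not a test. The tropomyosins, which are shared with other cells, were abundant in every tumor, with medians of 122 RPKM for Tpm3, 101 RPKM for Tpm1 and 38.3 RPKM for Tpm2. In the comparison of 7 against 5 tumors, 24 of these genes were tested, 0 were called in limma, and 13 were higher and 2 lower at an unadjusted p under 0.05. Of all 15043 genes, 0.193% were called and 14.6% passed the unadjusted level in either direction. For the 21 other membrane and calcium genes, led by Chrnb1, Cacnb1 and Dmd, the counts were 0 called of 14 tested, 1 higher and 1 lower, near the share of all genes. For the 15 other metabolic genes, led by Pfkm, Eno3 and Phka1, they were 0 called of 12 tested, 5 higher and 1 lower, and Eno3, the muscle enolase, was 75.4 and 75.7 RPKM in cheek tumors 2 and 3 against a median of 6.55 RPKM. For the genes of satellite cells and myoblast fusion, of which 13 of 15 names were in the files, they were 0 called of 6 tested, 0 higher and 1 lower. Pax7, the defining gene of satellite cells, was at most 0.569 RPKM, and the fusion genes listed as Tmem8c and Gm7325 were at most 0.374 and 0.126 RPKM. Pax3, which muscle precursors share with the neural crest, was 43.1 and 38.5 RPKM in cheek tumors 2 and 3 and 16 RPKM in retro-orbital tumor 4.
Over 15043 genes, those whose log2(RPKM + 1) across the 12 tumors was most like the mean of the 13 adult fast fibre members were Ankrd23 (Pearson r = 0.90), Ldb3 (0.87), Trdn (0.87), Sln (0.86), Cox6a2 (0.86), Ptpn2 (0.85), Usp12 (0.84), Myom3 (0.84), Srl (0.84) and Art1 (0.84). Members were left out of this ranking. Pearson r with Mylpf ranged from -0.08 (Myh4) to 0.99 (Tnnc2) among the other adult fast fibre members, so their mean blends unlike patterns. These values describe likeness among 12 tumors and were not tested.

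Markers of other cells were read beside the members. In the adipocyte list the summed RPKM was 10.1, 3.48, 2.93 and 25.1 in retro-orbital tumors 1 to 4, 3.68, 35.9 and 33.8 in cheek tumors 1 to 3, 3.55 to 6.71 in the meninges tumors, and 4.12 and 3.55 in the vestibular N and trigeminal N tumors. Cfd, a secreted product of fat cells, was 3.51, 5.85 and 4.66 RPKM in retro-orbital tumor 4 and cheek tumors 2 and 3 and at most 0.204 RPKM elsewhere. Of the 10 genes of this list, 4 (Adipoq, Cfd, Cidec and Fabp4) had their 3 highest values in those tumors. These tumors were named from the values of the list itself, and the share of all genes with this order was not counted. Most of the sum came from Fabp4, a fatty acid carrier also made in endothelium, with 24.2 RPKM in cheek tumor 2 and 25.4 RPKM in cheek tumor 3. Lep and Ucp1 were listed at 0 in those tumors, and Thrsp was highest in meninges tumor 1, at 3.29 RPKM. The part of fat in the muscle values was not tested.
The smooth muscle list summed to 26.9 to 134 RPKM in the retro-orbital tumors, 32.8 to 41.9 in the cheek, 39.6 to 105 in the meninges, 28.5 in the vestibular N and 43.5 in the trigeminal N tumor, with cheek tumors 2 and 3 near the low end of that range. The endothelium list summed to 33.5 to 153, 74.5 to 84.5, 103 to 142, 42.2 and 73.3 RPKM at the same locations in that order. The neuron list summed to 558 and 457 RPKM in cheek tumors 2 and 3, mostly from Nefl, and to between 21.1 and 184 RPKM in the other tumors. In the cardiac list the sum was 6.24 to 24.1 RPKM over the 12 tumors. Tnni3 was 1.01 to 10.8 RPKM and Myl4 1.25 to 13.3 RPKM, above 1 RPKM in every tumor. Nppb was 10.4 and 16.7 RPKM in cheek tumors 2 and 3, while Nkx2-5 was listed at 0 in all 12 tumors and Myh6 was at most 0.192 RPKM. Of these lists, limma called 0 genes in the comparison of 7 against 5 tumors. At an unadjusted p under 0.05, 1 adipocyte gene was higher and 1 lower of 4 tested, 2 cardiac genes were higher of 4, 1 endothelium gene was lower of 10, 2 neuron genes were lower of 9, and 0 smooth muscle genes of 8 passed. Of all genes 14.6% passed that level, and these small counts are not read as results about the lists.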

How the data were processed

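RNA was depleted of ribosomal RNA and made into stranded libraries. Alignment to mm10 was done with STAR, and only reads with a unique place were counted, as fragments, with HTSeq on the RefSeq annotation. The authors then deposited 1 RPKM value per gene for each tumor. The transcript length behind each RPKM and the strand setting of the counting are not given in the sources used here. Processing notes name bcl2fastq 2.17. Fragment totals (13206168 to 57128422 per tumor, median 27929720) and member fragments were recovered from the RPKM steps at the smallest gene length that made a gene's 12 values whole within 0.03 fragments, and cover counting error only. Of 17980 genes tried, 3422 had whole values at an annotated length, and for most members the length used was not an annotated one. These numbers are therefore estimates. The paper gives a narrower range of reads per sample, and the cause of the wider range here was not tested.

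RPKM values are not counts, so limma 3.58.1 in R 4.3.3 was run on log2(RPKM + 1) with a trended, robust prior, a minimum of 1 RPKM in 3 of the tumors fitted and Benjamini-Hochberg adjustment at 0.05 over all genes. This scale understates changes of low genes. In simulated data for the cheek against the meninges tumors (14435 genes), 67% of genes changed by 2 on the log2 scale and 92% changed by 4 were recovered, and 4.22% of calls were false. Changes were planted only in genes with a mean log2(RPKM + 1) above 3, and equally in every cheek tumor, with normal noise. The recovered shares therefore do not measure the power for members with lower values or with unlike cheek tumors. Gene positions came from GENCODE M21 (GRCm38, which mm10 also names), promoters from the RefSeq table of GRCm38.p6. Summaries used Python 3.11.15, numpy 2.4.6 and pandas 2.3.3.

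Members and lists were chosen with earlier results of these data known. Named genes were all 40 members, the 3 highest genes of each list, apart from items not reported here, and the 10 genes most like the adult fast members. Others named were chosen after their values were seen. Alternatives were a pseudocount of 0.1, looser filters, quantile normalization, a constant prior, each tumor left out, and, chosen after seeing the data, cheek tumors 2 and 3 averaged as 1 tumor and the first part of the title as a block (duplicateCorrelation). Replicate numbers only name the tumors.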

Additional observations from a re-analysis of the deposited data

Results flagged for a closer look

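Each of the 40 members was screened in the 4 retro-orbital tumors for a single tumor whose log2(RPKM + 1) lay far from the others, by Dixon's ratio of the gap to the whole range at the 95% level. This marks about 1 in 20 groups by chance, and 4 of 40 members were marked. Tnnt2, the troponin T of heart and embryonic muscle, had a ratio of 0.900, with 9.2 RPKM in retro-orbital tumor 1 against 0.587 to 0.91 RPKM in the other retro-orbital tumors. Pvalb, the calcium buffer of fast fibres, had a ratio of 0.929, with 6.34 RPKM in retro-orbital tumor 4 against 0.113 to 0.271 RPKM. Myf5, which commits precursors to muscle, had a ratio of 1 because it was listed at 0 in all but retro-orbital tumor 1, where 0.0355 RPKM came from 2 fragments. Myl3, the slow essential light chain, likewise had a ratio of 1 because of 4 fragments (0.108 RPKM) in retro-orbital tumor 4.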

How the results depend on the processing

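Locations hold 1 to 4 tumors, values below about 3 fragments cannot be told from 0, and no normal muscle gives the members a reference level. Replicate numbers only name the tumors, so the first part of the title served as the replicate block. With this block, chosen after seeing the data, 2 members were called in the F test, 5 for the cheek against the meninges tumors and 0 in the other comparisons. Over all genes the block gave 2802, 3, 4243, 2 and 112 calls for the F test, the retro-orbital against the meninges, the cheek against the meninges, the cheek against the retro-orbital and the 7 against 5 tumors. The number of members called stayed at 0 in the F test and in each comparison between locations under the pseudocount of 0.1, both looser filters, quantile normalization, the constant prior and the averaging of cheek tumors 2 and 3. With single tumors left out it ranged from 0 to 7 for the cheek against the meninges tumors (7 without cheek tumor 1) and was 0 in the other fits. The lowest number of members detected in a tumor moved from 8 at 1 RPKM to 27 at 0.1 RPKM and 2 at 5 RPKM, and the highest from 35 to 22 at 5 RPKM. Cheek tumor 2 held the highest value of 15 members, and of 16 after quantile normalization. Within the 6 heavy chain members, which leave out Myh13, the adult fast share ranged from 32.2% to 99.3% by RPKM and from 31.9% to 99.2% by fragments.

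The 18 members with an unadjusted p under 0.05 in the comparison of 7 against 5 tumors kept the direction of their log2 difference in all 19 alternatives, with adjusted p from 0.0515 to 0.791 in limma. These members were chosen by their p in the same tumors that the alternatives fit again. A kept direction is therefore no independent support. For Neb the difference ranged from 1.31 (title block) to 2.97 (pseudocount 0.1), for Tnnc2 from 1.68 to 3.80, for Ttn from 1.08 to 3.01, and for Myh8 from -4.34 (without meninges tumor 2) to -2.19 (without the vestibular N tumor). Genes called over the whole table were few and moved more. Leaving out single tumors gave 0 to 198 genes in the F test (6 with all tumors), 0 to 41 for the retro-orbital against the meninges tumors (3), 0 to 527 for the cheek against the meninges tumors (7), 0 to 147 for the cheek against the retro-orbital tumors (4) and 5 to 187 for 7 against 5 tumors (29). The highest counts came without cheek tumor 1 (the F test and both cheek comparisons) or without retro-orbital tumor 3, and the lowest came, among others, without cheek tumor 2 or 3. The alternatives other than the block and the left-out tumors gave 0 to 19, 0 to 9, 0 to 22, 0 to 4 and 5 to 71 genes. The cause was not tested. Quantile normalization moved the median log2 difference of all genes from -0.16 to 0.01 for the cheek against the meninges tumors and from -0.13 to -0.02 for 7 against 5 tumors, where the median of the members tested was 1.18 and 1.28.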
